A study of Mus musculus with 4 samples.

Results

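Cd72, Tesk1 and Tesk2 were described in RNA from immunoprecipitations (IP) of the spermatid kinase TSSK2 and from control IgG-IPs. They are 3 of the 21936 genes in the count table. Cd72 was chosen by its p-value in this comparison: among 7479 genes with a negative log2 fold change, it had the smallest one. Tesk1 was added because it overlaps Cd72 on the other strand, and Tesk2 because it is the paralogue of Tesk1. The values of this comparison are therefore given for the 3 genes as a description and not as a test. The study made 2 TSSK2-IP libraries and 2 control IgG-IP libraries. The paper also sequenced DDX4-IP samples, which are not among the data used here. Germ cells of adult C57BL/6 testes were cross-linked with PFA, and the pellet of the sonicated lysate was precipitated with anti-TSSK2 antibody or with mouse IgG. The sources used here do not say whether the 2 samples of a group came from separate animals, so the spread between them may be technical.

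TESK1 and TESK2 are protein kinases that phosphorylate cofilin, the protein that severs actin filaments, and phosphorylation switches cofilin off. Tesk1 is best known from the testis, where its mRNA is abundant in late spermatocytes and round spermatids, while Tesk2 has a broader expression. CD72 is a membrane protein of B lymphocytes with a C-type lectin-like domain outside the cell. Inside the cell it binds the phosphatase SHP-1 (Ptpn6), and semaphorin 4D is its ligand.

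Cd72 and Tesk1 run towards each other on chromosome 4 of GRCm38, and their 3′ ends overlap. In the GENCODE annotation, Cd72 (ENSMUSG00000028459) spans 43446462 to 43454628 on the minus strand and has 10 transcripts. Tesk1 (ENSMUSG00000028458) spans 43441939 to 43448064 on the plus strand and has 5 transcripts. Exons of both genes cover the 1423 bases from 43446614 to 43448036. These bases make up 41.6% of the 3422 exon bases of Cd72 and 32.1% of the 4434 exon bases of Tesk1. They include 881 coding bases of Tesk1, all those in its last exon, and 0 coding bases of Cd72. Most of the overlap depends on the transcript Cd72-202, whose 3′ UTR extends below Tesk1, and without this transcript the genes share only 313 bases. Tesk2 (ENSMUSG00000033985) lies elsewhere on chromosome 4, from 116720948 to 116805956 on the plus strand.

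**Figure D1:**
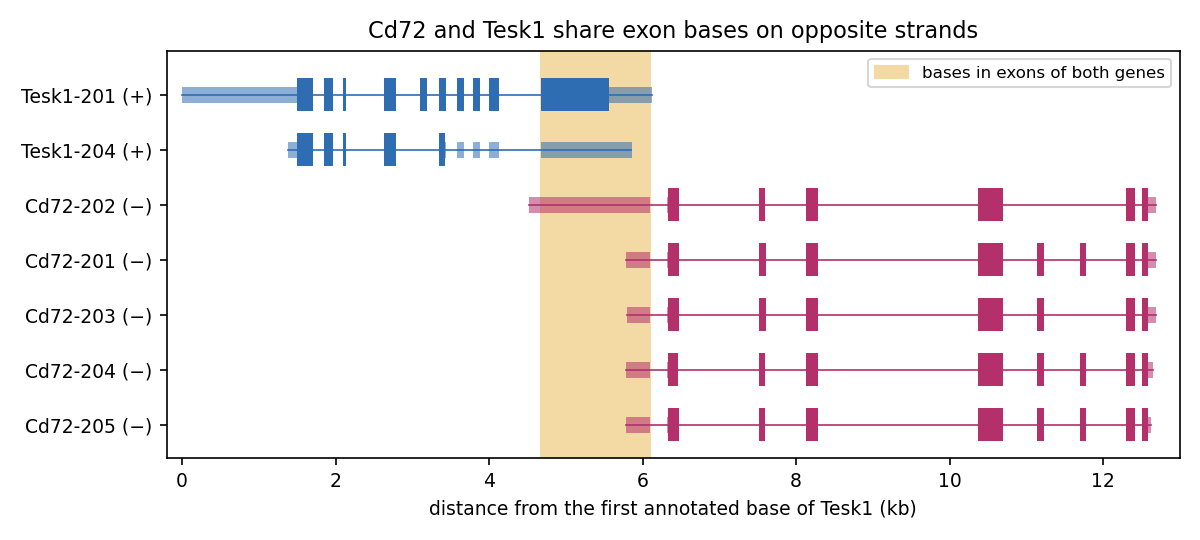
Transcripts of Tesk1 (blue, plus strand) and of Cd72 (pink, minus strand) are drawn against the distance in kb from the first annotated base of Tesk1, with coding bases as tall boxes, other exon bases as low boxes and introns as lines. Retained-intron and non-coding transcripts are left out. The shaded 1423 bases are in exons of both genes, and only Cd72-202 reaches over the coding bases in the last exon of Tesk1.

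A stretch of the overlap shows why strand matters for these counts. The 30 bases at chr4:43447468-43447497 are the last coding bases of Tesk1 with its stop codon (in capitals), and an RNA of Cd72-202 carries the same positions read from the other strand (the complement of the stop codon in capitals).
Tesk1, plus strand: agcctgcagctgcctggggcacgctctTAG
Cd72, minus strand: CTAagagcgtgccccaggcagctgcaggct

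The mRNAs begin at opposite ends of the locus, at separate promoters. RefSeq windows of 300 bases (GRCm38.p6, 250 bases before and 50 from the annotated start) were found for all 3 genes. Those of the overlapping pair are shown because their mRNAs lay on the same side of the controls. A link between a promoter and the level in an IP was not tested. The window of Tesk1 is chr4:43442027-43442326 on the plus strand and that of Cd72 is chr4:43454577-43454876 on the minus strand. Capitals mark TGACGTCA, the full cAMP response element, which the CREB and CREM factors are known to bind.
Tesk1: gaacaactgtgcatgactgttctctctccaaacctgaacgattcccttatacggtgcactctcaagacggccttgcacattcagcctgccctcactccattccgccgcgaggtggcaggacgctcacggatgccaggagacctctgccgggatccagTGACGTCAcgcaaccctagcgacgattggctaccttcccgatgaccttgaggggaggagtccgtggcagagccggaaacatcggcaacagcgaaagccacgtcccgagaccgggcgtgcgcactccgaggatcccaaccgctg
Cd72: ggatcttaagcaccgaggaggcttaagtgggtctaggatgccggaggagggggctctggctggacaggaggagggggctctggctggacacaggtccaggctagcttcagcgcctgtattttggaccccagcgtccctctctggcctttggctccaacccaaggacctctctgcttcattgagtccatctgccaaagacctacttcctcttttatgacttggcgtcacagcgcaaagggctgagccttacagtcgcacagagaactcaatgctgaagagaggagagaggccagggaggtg
The element stood 93 bases before the RefSeq start of Tesk1 at 43442277. GENCODE starts the gene 338 bases farther upstream, so that the element lies 245 bases after that start, in its first exon, and so does the entire window. For Cd72 the starts are 2 bases apart. The element reads the same on both strands and was found in 1.80% of 32544 promoter windows, but not in those of Cd72 and Tesk2. The window of Tesk1 held 25 CpG dinucleotides and that of Tesk2 16, whereas that of Cd72 held 7, the median of all windows. GAGGAA or its complement, a core that ETS factors bind, occurred once in the Cd72 window and in 28.1% of all windows. CCAAT, searched on both strands, had 4 matches in the Tesk2 window, 1 in that of Tesk1 and 0 in that of Cd72, and 37.4% of all windows held it. GGGCGG on either strand had 2 matches in the Tesk2 window and 0 in those of the other members, against 35.9% of windows with a match. TATAAA on either strand was in none of the 3 windows (0 matches) and in 13.6% of all.

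The coding sequences of Tesk1 and Tesk2 were compared because paralogues can share reads. Both have 10 coding exons, and 5 of these have the same length in both genes, among them exons 2 to 5 with 122, 49, 147 and 83 bases. Over 743 aligned coding bases, which start at base 121 of Tesk1, 72.7% were identical. The longest run without a mismatch was 20 bases (in capitals, with 6 bases on each side). It crosses the junction between coding exons 2 and 3 in both genes, at 43443904 and 43444031 in Tesk1 and at 116751226 and 116771800 in Tesk2.
Tesk1: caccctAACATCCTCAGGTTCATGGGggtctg
Tesk2: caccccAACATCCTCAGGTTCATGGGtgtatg

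The libraries held between 3938922 and 9858941 counts, and 1 count was worth between 0.156 and 0.230 CPM (CPM being counts scaled by library size and TMM). Control replicate 1 held the 9858941 counts and had a TMM factor of 0.652. The factor was 1.12 in control replicate 2 and 1.17 and 1.18 in TSSK2-IP. A lower factor raises the CPM of every gene in a library, so the distance between the control libraries depends in part on it. The replicates were unequal in spread, with 4.95% of 14722 tested genes at least 2-fold apart between the TSSK2-IP libraries and 40.8% between the control libraries. All 6 spermatid markers, among them the protamine and transition protein mRNAs Prm1, Prm2, Tnp1 and Tnp2, were well counted, with a summed level of 2811 to 3131 CPM in TSSK2-IP and 3297 to 4510 CPM in control IgG-IP.

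The counts show how overlapping genes were treated. Of 23 genes whose exons lay wholly under the exons of a single opposite-strand gene of the table, 23 had a count. Of 25 genes wholly under the exons of a single same-strand gene of the table, 0 had a count. In the wider set of 122 genes wholly under same-strand exons of any annotated genes, 7 had a count, at most 24 in all libraries together. Bases shared on opposite strands were thus counted, while those shared on the same strand gave few counts or none. A share of Tesk1 reads that appear on the wrong strand would still be counted for Cd72. For the 11 covered genes whose opposite partner had at least 1000 counts in all libraries together, the count was set against the part of the partner's count that falls on those bases when its reads are spread evenly. The lowest value was 4.35%, for Gm21958 under Supt20, and the median was 13.9%. The highest value was 444%. Cd72 was set against the shared bases of Tesk1 in each library, with its whole count, which includes 1999 exon bases outside the overlap. This gave 7.44% and 10.9% in TSSK2-IP and 10.5% and 16.3% in control IgG-IP. The range of the 11 genes is wide and their measure differs, so nothing follows from the place of Cd72 within it. The part of wrong-strand reads in the count of Cd72 was not tested.

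**Figure D2:**
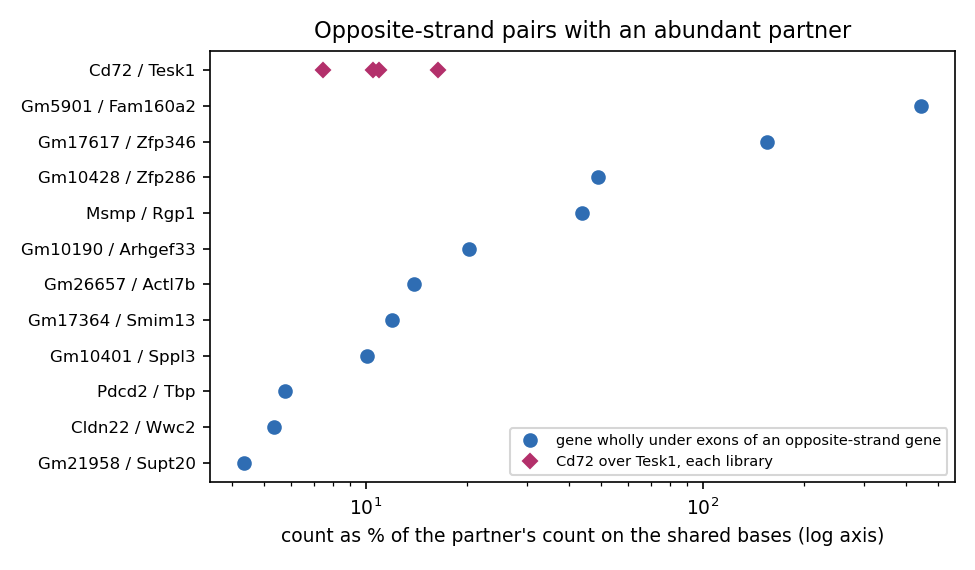
The horizontal log axis gives the count of a gene as a percentage of its opposite-strand partner's count on the shared bases, assuming even coverage. Blue points are the 11 genes wholly under a partner with at least 1000 counts, from 4.35% to 444%, and pink diamonds are Cd72 over Tesk1 in each library, from 7.44% to 16.3%. Unlike the other genes, Cd72 also has exon bases outside the overlap.

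Cd72 was lower in both TSSK2-IP libraries than in both controls. It had 67 and 82 counts in TSSK2-IP and 377 and 171 counts in control IgG-IP, or 13.9 and 15.6 CPM against 58.8 and 39.3 CPM. The TSSK2-IP libraries were 1.12-fold apart and the control libraries 1.50-fold, whereas the closest pair across the groups was 2.52-fold apart. The mean was 14.7 ± 1.21 CPM in TSSK2-IP and 49.1 ± 13.8 CPM in control IgG-IP (SD, n = 2 each). In the fit this was a log2 fold change of -1.73 with a standard error of 0.41, and the means differed 3.33-fold. Its adjusted p in the edgeR fit, 0.0845, is the value it was chosen for and did not reach 0.05. It passed without control replicate 1, where the log2 fold change was -1.35 and 2.56% of all genes were called lower, and without control replicate 2 (-2.06), where 17.4% were. It also passed without a filter on low counts (-1.78, with 0.113% of genes called lower) and with the replicate number as a block (-1.71, with 0.0204%). It did not pass under the other 6 alternatives, among them the fits without a TSSK2-IP library. All are settings of the comparison that Cd72 was chosen on. The next genes in that order were Ttll1, with a log2 fold change of -1.98 and an adjusted p of 0.110, and Tufm, with -1.73 and 0.129 in the same edgeR fit. With 2 libraries a group, the two-sided exact permutation test has a smallest p of 0.333 and was not used. A level here is what an IP recovered from mixed germ cells, in which the number of cells with an mRNA and its amount per cell cannot be told apart.

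Tesk1 was one of the most counted mRNAs of these libraries, between places 73 and 145 by CPM in all 4. It had 2806 and 2340 counts in TSSK2-IP and 11200 and 3263 counts in control IgG-IP, or 582 and 445 CPM against 1747 and 750 CPM. Both TSSK2-IP libraries were again below both controls, but control replicate 1, with its TMM factor of 0.652, stood far above the rest in CPM. The control libraries were 2.33-fold apart, more than the 1.29-fold between the closest libraries of different groups. The mean was 513 ± 96.5 CPM in TSSK2-IP and 1249 ± 706 CPM in control IgG-IP (SD, n = 2 each). The edgeR fit gave a log2 fold change of -1.28 with a standard error of 0.80 and an adjusted p of 0.485. It was -0.49 without control replicate 1, and -1.84 without control replicate 2, where it passed the thresholds with 17.4% of all genes called lower. The means differed 2.43-fold, close to the fold between the controls.

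Tesk2 did not separate the groups. Its counts were 505 and 551 in TSSK2-IP and 800 and 383 in control IgG-IP. The TSSK2-IP libraries, at 105 CPM each, lay between the control libraries at 125 and 88.0 CPM. The mean was 105 ± 0.111 CPM and 106 ± 26.0 CPM (SD, n = 2 each). The edgeR fit gave a log2 fold change of -0.02 with a standard error of 0.45 and an adjusted p of 0.987, and the sign turned without control replicate 1 (0.31) and with a minimum of 10 counts in each library (0.049). Tesk2 shares 1212 exon bases with Toe1, an RNA-processing nuclease gene on the opposite strand, and 405 bases, 9.48% of its exon bases, with Ccdc163 on its own strand. Toe1 had 127 and 151 counts in TSSK2-IP and 250 and 137 counts in control IgG-IP.

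**Figure D3:**
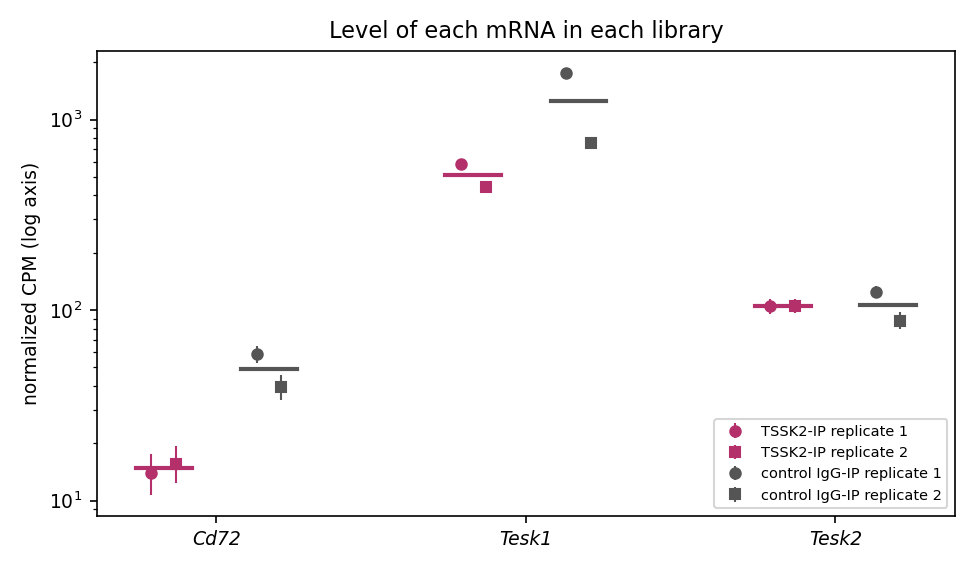
Normalized CPM on a log axis for each gene in the TSSK2-IP (pink) and control IgG-IP (grey) libraries, with replicate 1 as circles and replicate 2 as squares. Bars are 95% Poisson intervals of the count, which cover counting error only, and horizontal lines are group means. Cd72 and Tesk1 are lower in both TSSK2-IP libraries than in both controls, while the TSSK2-IP values of Tesk2 lie between its control values.

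Of the 3 genes, 2 lay below both controls in both TSSK2-IP libraries, an order seen in 21.6% of all genes tested, and 0 lay above both, an order seen in 27.3%. None passed the thresholds for a lower mRNA (0 of 3 genes, log2 fold change of at most -1 and adjusted p of at most 0.05 in the edgeR fit). Of all genes tested, 0% passed them. Only Cd72 had an unadjusted p under 0.05 (1 of 3 genes), against 4.89% of genes in this direction. Since Cd72 was chosen for this value, nothing follows from these shares.

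Per kb of exon, the order of the levels was Tesk1, Tesk2 and Cd72 in every library. Tesk1 stood at 131 and 100.4 CPM per kb in TSSK2-IP and at 394 and 169 CPM per kb in control IgG-IP. Tesk2 had 24.5 CPM per kb in both TSSK2-IP libraries, and 29.2 and 20.6 CPM per kb in the controls. Cd72 had 4.06 and 4.56 CPM per kb in TSSK2-IP and 17.2 and 11.5 CPM per kb in the controls. Cd72 and Tesk2 did not overlap in either group on this scale. When only the 1999 bases outside the overlap were taken as the length of Cd72, its control levels were 29.4 and 19.7 CPM per kb. These are upper bounds, since the count still included reads on the shared bases. Tesk2 was not corrected for its own overlaps with Toe1 and Ccdc163, so the measures are unlike. On them the order of Cd72 and Tesk2 in the controls was not settled.

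Ratios within a library need no scaling between libraries. For 100 counts of Tesk1 there were 2.39 and 3.50 counts of Cd72 in TSSK2-IP and 3.37 and 5.24 in control IgG-IP. These groups overlapped, and the means of 2.95 ± 0.790 and 4.30 ± 1.33 (SD, n = 2 each) differed 1.46-fold. Against Tesk2 the groups did not overlap. For 100 counts of Tesk2 there were 13.3 and 14.9 counts of Cd72 in TSSK2-IP and 47.1 and 44.6 in control IgG-IP. The means, 14.1 ± 1.14 and 45.9 ± 1.75 (SD, n = 2 each), differed 3.26-fold. Tesk1 had 5.56 and 4.25 counts for each count of Tesk2 in TSSK2-IP and 14.0 and 8.52 in control IgG-IP. Cd72 was lower relative to Tesk2 in both TSSK2-IP libraries, but relative to the gene that overlaps it the replicates differed as much as the groups. Cd72 was chosen for its difference between these groups and Tesk2 hardly differed (log2 fold change -0.02), so the ratio to Tesk2 repeats that difference.

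**Figure D4:**
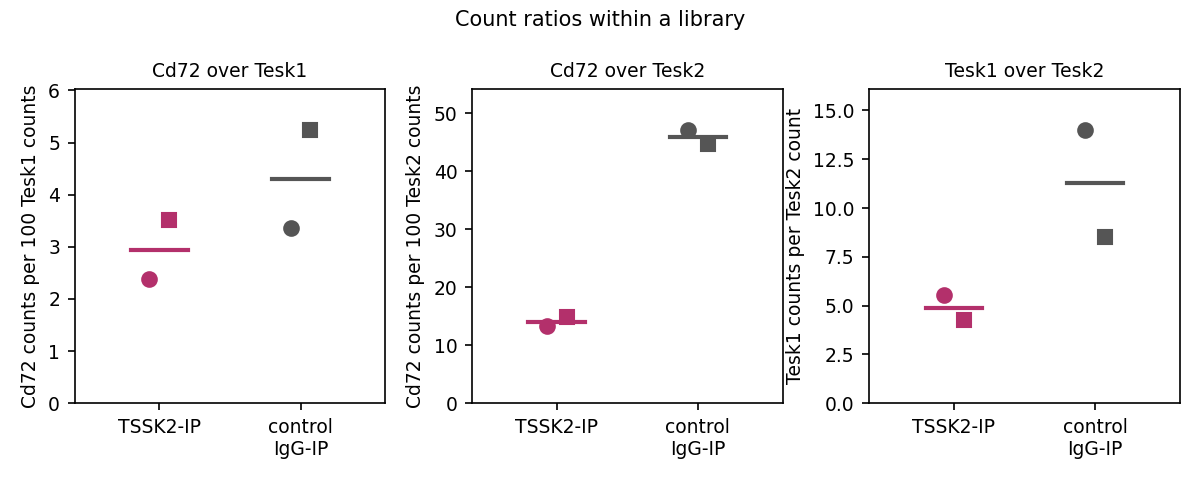
Each panel gives a ratio of raw counts within a library, with TSSK2-IP in pink, control IgG-IP in grey, replicate 1 as circles, replicate 2 as squares and group means as lines, on axes that start at 0. Cd72 over Tesk1 overlaps between the groups, whereas Cd72 over Tesk2 is at 13.3 and 14.9 in TSSK2-IP against 47.1 and 44.6 in control IgG-IP.

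The profiles of the 3 genes over the 4 libraries were compared with all genes tested, by the Euclidean distance between centred log2 CPM values. Chpf, a chondroitin polymerizing factor, was nearest to Cd72 (distance 0.26), followed by B3galt4 (0.27) and Gfra1 (0.30), the GDNF receptor of spermatogonial stem cells. Tesk1 stood at 0.79 from Cd72, and 293 genes were nearer. The genes nearest to Tesk1 were Supt5 (0.05), Tsc2 (0.06) and Fam234b (0.06), and those nearest to Tesk2 were Atp9b (0.02), Rrp7a (0.04) and Spag9 (0.05). Within a distance of 0.25 there were 0 genes for Cd72, 191 for Tesk1 and 561 for Tesk2. With 4 libraries these distances describe only how a gene splits between them.

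The genes that act with TESK kinases on cofilin did not pass the thresholds in either direction. The list held cofilins, LIM kinases, slingshot phosphatases, upstream GTPases and their kinases, and TESK1 partners such as Spry4 and Parva. Of 29 genes 26 were tested, and 0 were called higher and 0 lower in the edgeR fit, where 0.693% of all genes were called higher and 0% lower. At an unadjusted p under 0.05, 3 were higher and 1 was lower, against 8.34% and 4.89% of all genes. The median log2 fold change was -0.05, beside -0.02 for all genes tested. Rac1, a small GTPase upstream of the PAK kinases, had 16.8 and 14.1 CPM in TSSK2-IP and 4.37 and 7.35 CPM in control IgG-IP, a log2 fold change of 1.41. Ssh3, a cofilin phosphatase, had a log2 fold change of 1.77, and the kinase Pak2 had 0.98. Both groups were apart for each of these genes. Limk2, which phosphorylates cofilin as TESK1 does, had 22.0 and 25.5 CPM in TSSK2-IP and 53.7 and 34.0 CPM in control IgG-IP, a log2 fold change of -0.89. Pak1 and Cap2 followed at -0.90 and -0.83. The adjusted p of these 6 genes lay between 0.268 and 0.430 in the edgeR fit. Ssh2, a phosphatase counted as often as Tesk1 in TSSK2-IP, had 2759 and 2924 counts there and 11229 and 2381 counts in control IgG-IP, and was named after its values were seen. Its high value in control replicate 1 resembles that of Tesk1, but its groups overlapped. Without control replicate 1, 3 of 27 tested genes of the list were called in either direction, against 7.94% of all genes, and without control replicate 2, 14 of 26, against 35.3%.

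The partners of CD72 and the signalling genes of the B cell receptor gave no call in the edgeR fit. Of 21 genes 17 were tested, with 0 called higher and 0 lower, and 0 higher and 1 lower at an unadjusted p under 0.05. Over all genes tested, 0.693% were called higher and 0% lower, and 8.34% and 4.89% had such a p. The median log2 fold change was -0.39, beside -0.02 for all genes tested. Inpp5d, the lipid phosphatase SHIP1, had 24.7 and 23.2 CPM in TSSK2-IP and 75.5 and 28.0 CPM in control IgG-IP, a log2 fold change of -1.12. Plcg2 followed at -0.82 and the kinase Syk at -1.33, and both had their TSSK2-IP libraries below their controls. On the other side, Ptpn6, the phosphatase that CD72 binds, had 19 and 38 counts in TSSK2-IP and 18 and 12 counts in control IgG-IP, a log2 fold change of 1.00. The complement receptor Cr2 had a log2 fold change of 0.55 and the CD72 ligand Sema4d one of 0.52. The adjusted p of these 6 genes lay between 0.344 and 0.740 in the edgeR fit. Leaving out a control library gave 3 calls in either direction of 19 tested without replicate 1, and 3 of 18 without replicate 2, where 7.94% and 35.3% of all genes were called.

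Markers of B lymphocytes were set beside Cd72, since these cells carry its mRNA. Their part in the counts of Cd72 was not tested. Ms4a1, which encodes CD20, had 9 to 11 counts in each library. The B cell receptor chains Cd79a and Cd79b had 1 to 8 counts in each library, and 0 of the 5 B cell markers were at 0 throughout. Pax5 was the most counted of those named here. It lay on the other side from Cd72, with 273 and 321 counts in TSSK2-IP and 97 and 159 counts in control IgG-IP. The summed level of the 5 markers was 65.1 and 66.6 CPM in TSSK2-IP and 20.8 and 50.8 CPM in control IgG-IP, most of it from Pax5. Of the whole list of 22 lymphocyte and myeloid markers, 20 were in the table and 14 were tested, with 0 called higher and 0 lower. At an unadjusted p under 0.05, 1 was higher and 0 were lower, and the median log2 fold change was -0.13. Of all genes tested, 0.693% were called higher and 0% lower, and 8.34% and 4.89% had such a p. After Pax5 (log2 fold change 1.19), the smallest p-values belonged to Ebf1 (1.07) and Cd37 (0.66) among positive values, and to Csf1r (-0.85) and Fcrla (-0.69) among negative values. The adjusted p of these 5 genes lay between 0.306 and 0.691 in the edgeR fit. Without control replicate 2, 3 of 16 tested genes of the list were called, and 35.3% of all genes. The list summed to 128 and 140 CPM in TSSK2-IP and 65.5 and 123 CPM in control IgG-IP.

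The genes next to the locus gave no call in the edgeR fit. Of 9 genes of the table within 100 kb, 7 were tested, with 0 called in either direction, against 0.693% of all genes. Of the 7, 0 lay below both controls in both TSSK2-IP libraries and 2 lay above both. Over all genes tested these orders were seen in 21.6% and 27.3%. On the side of Tesk1, Fam166b had 23 and 9 counts in TSSK2-IP and 9 and 6 in control IgG-IP and was not tested, and Rusc2 had a log2 fold change of -0.18. On the side of Cd72, Sit1, an adaptor of lymphocytes, had 1 and 11 counts in TSSK2-IP and 6 and 18 in control IgG-IP, a log2 fold change of -1.06 with a standard error of 1.13. Ccdc107 had 147 and 125 CPM in TSSK2-IP and 51.8 and 367 CPM in control IgG-IP, so that its controls enclosed its TSSK2-IP values. Farther out, Atp8b5 stood at -0.67, Tln1, which encodes talin, at 0.20 and Arhgef39 at 1.06. At an unadjusted p under 0.05, 1 gene, Arhgef39, was higher and 0 were lower, against 8.34% and 4.89% of all genes. The adjusted p of the tested neighbours lay between 0.372 and 0.977 in the edgeR fit, and 1 of 9 was called without control replicate 1 and 3 of 8 without control replicate 2, where 7.94% and 35.3% of all genes were. Of the 5240 other genes of the table with exons under an opposite-strand gene, 4397 were tested, with 22 called higher and 0 lower. Their median log2 fold change was -0.07. Over all genes tested, 0.693% were called higher and 0% lower, and the median was -0.02.

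**Figure D5:**
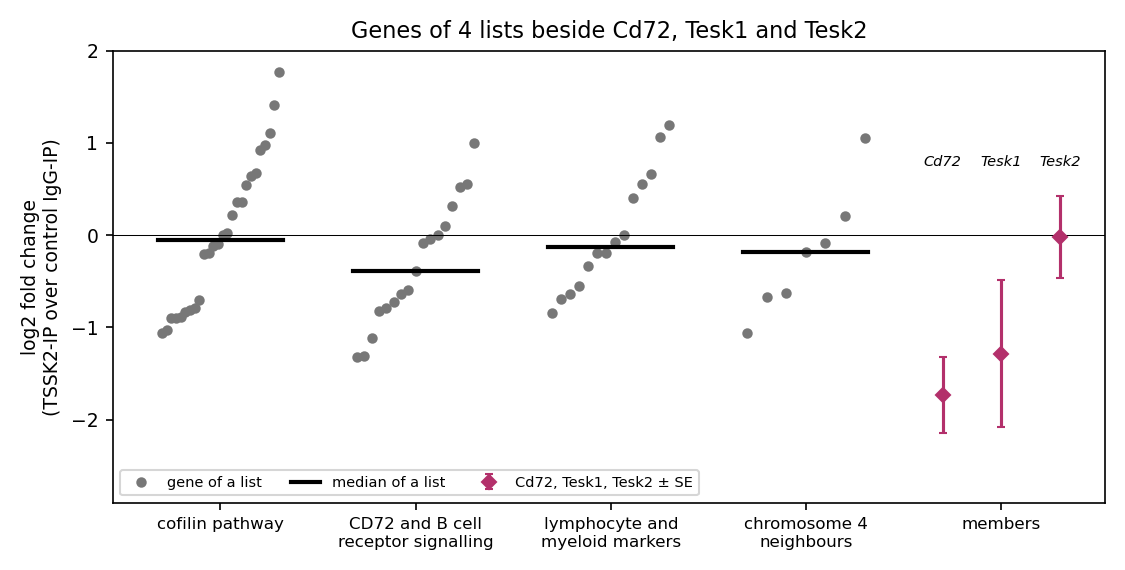
The vertical axis gives the log2 fold change of TSSK2-IP over control IgG-IP, with a grey point for each tested gene of the 4 lists, a black line for each list's median, and pink diamonds with standard errors for Cd72, Tesk1 and Tesk2. The list medians lie between -0.39 and -0.05. Cd72, at -1.73, was chosen for the smallest p among genes with a negative value, so its place below the list genes is not a finding.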

How the data were processed

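Per the labels, the directional libraries (rRNA not removed) were trimmed with Trimmomatic 0.39, mapped to GRCm38 with STAR 2.7.10a and counted with featureCounts 2.0.3. The authors deposited raw counts per gene, whole numbers without normalization, and the strand setting is not given in the sources used here. Of 21936 identifiers, 21894 were found in GENCODE vM21 (GRCm38), which gave symbols and gene models, and 42 were not. Counts were fitted with edgeR 4.0.16 in R 4.3.3 (filterByExpr, TMM, glmQLFit, glmQLFTest) on 14722 genes. A call needed a log2 fold change of 1 or more in size and a Benjamini-Hochberg adjusted p of 0.05 or less over all genes tested. The fit was tested on simulated data. Log2 CPM used a prior count of 2. Sequences were read from RefSeq GRCm38.p6 and aligned with Biopython 1.88. The genes and lists were chosen with earlier results of these data known. Named were the 3 genes, every list gene past both thresholds or else, for each sign, the 3 of smallest p, the 2 nearest neighbours on each side, the 3 nearest profiles, and markers by level, of which 1 is not reported here. Alternatives were DESeq2 1.42.0, its size factors, upper-quartile normalization, other filters, the replicate number as a block, and each library left out.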

Additional observations from a re-analysis of the deposited data

How the results depend on the processing

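The log2 fold change of Cd72 was negative under all 10 alternatives, from -2.06 to -1.35. It passed both thresholds without a filter on low counts (-1.78, adjusted p = 0.0249 in edgeR) and with the replicate number as a block (-1.71, adjusted p = 0.0459 in edgeR). The replicate numbers are not known to be pairs, since the labels give only the numbers. The deviations of same-numbered libraries correlate at 0.13. With 2 libraries a group, both numbers give the same value, so it cannot settle the pairing. The block moved the number of genes called higher from 102 to 274 and lower from 0 to 3. Cd72 also passed when a control library was left out (-1.35 without control replicate 1, -2.06 without control replicate 2), and leaving out a TSSK2-IP library gave -1.68 and -1.84. These fits take the spread of the lone library from the other group. Cd72 did not pass without a TSSK2-IP library, nor under the other settings. DESeq2 gave -1.84 (adjusted p = 0.0629). In edgeR, DESeq2 size factors gave -1.87 (adjusted p = 0.0671), and upper-quartile normalization gave -1.72 (adjusted p = 0.120). A minimum of 10 counts in each library gave -1.66 (adjusted p = 0.136 in edgeR). The log2 fold change of Tesk1 ranged from -1.84 to -0.49 with a library left out and passed without control replicate 2 (-1.84). Tesk2 turned to 0.049 when a minimum of 10 counts was asked of each library, and ranged from -0.32 to 0.31 with a library left out, the positive value being without control replicate 1. With a library left out, 0 to 14 cofilin pathway genes were called, 0 to 3 genes of B cell receptor signalling, 0 to 3 lymphocyte and myeloid markers and 0 to 3 neighbours, in each case 0 without a TSSK2-IP library. Without control replicate 2 the 14 cofilin pathway genes included Limk1, Limk2, Ssh2 and Rac1, and without control replicate 1 they were Pak2, Rac1 and Ssh3. Over all genes, 894 were called higher and 426 lower without control replicate 1 (7.94% of those tested), and 2755 higher and 2688 lower without control replicate 2 (35.3%). The other settings called 0 genes of these lists. The median log2 fold change of each list turned positive with some library left out, reaching 0.28, 0.25, 0.47 and 0.52 in the same order. The first value was without control replicate 1, where the median of all genes was -0.003. The others were without control replicate 2, where that median was 0.165 and the cofilin median -0.43. With all libraries kept, a minimum of 10 counts gave 0.43 for the lymphocyte and myeloid markers and 0.03 for the cofilin list. The ratio of Cd72 to Tesk1 in control IgG-IP over TSSK2-IP ranged from 1.14 to 1.80 with a library left out. Over all genes, the number called higher was lowest under upper-quartile normalization (20) and, with all libraries kept, highest when low counts were not filtered (283, with 24 lower). With 160 higher and 1 lower, DESeq2 also exceeded edgeR. Counts of Cd72 in TSSK2-IP were under 100, and a limit of 3 counts is 0.468 to 0.689 CPM.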

Other observations

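Gm26657, a gene wholly under the exons of Actl7b, an actin-like gene of spermatids, had 130 and 129 counts in TSSK2-IP and 417 and 190 counts in control IgG-IP, in the same order as Cd72. Actl7b itself had 984 and 1116 counts in TSSK2-IP and 3574 and 1176 counts in control IgG-IP. These genes were picked after their values were seen.

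Somatic markers of the testis were low throughout. The 5 Sertoli cell markers summed to 30.5 and 17.9 CPM in TSSK2-IP and 8.74 and 19.3 CPM in control IgG-IP, and the 5 Leydig cell markers to 35.4 and 34.6 CPM against 14.4 and 33.3 CPM. The 5 spermatogonial markers had 26.4 to 32.9 CPM in the 4 libraries.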
